A study of Homo sapiens with 36 samples.

Results

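The 37 genes of the human mitochondrial genome were described in 3 B-cell leukaemia lines exposed to 3 anti-leukaemic drugs. The genes were taken as all entries of the count file whose symbol begins with MT-, which gave 37 of 37549 gene symbols, a rule that uses symbols and no measured value. They comprise 13 mRNA genes, 2 rRNA genes and 22 tRNA genes. The lines were the B lymphoblastoid leukaemic lines MEC1, with mutated p53, and JVM2 and EHEB, both with wild-type p53. Cells received 50 µM fludarabine (a purine nucleoside analogue), 5 µM ibrutinib (an inhibitor of Bruton tyrosine kinase), 10 µM idelalisib (an inhibitor of the delta isoform of phosphatidylinositol-3-kinase) or the vehicle DMSO. MEC1 cells were exposed for 48 h, JVM2 cells for 72 h and EHEB cells for 96 h, so the line and the exposure time cannot be told apart. Each of the 12 groups held 3 libraries of rRNA-depleted total RNA, 36 in all. The labels do not say whether the 3 came from separate cultures, so p-values measure the spread between these libraries, which may be technical. Libraries are called by their line and number. DMSO and fludarabine libraries of a line carry neighbouring numbers (MEC1_37 to MEC1_48, JVM2_85 to JVM2_96 and EHEB_133 to EHEB_144), whereas ibrutinib and idelalisib libraries carry a later run (MEC1_184 to MEC1_192, JVM2_232 to JVM2_240 and EHEB_280 to EHEB_288), so that for these 2 drugs the numbering and the treatment cannot be told apart.

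Library totals ranged from 26590705 to 53538925 counts. The 6 B-cell marker genes were all expressed, summing to between 640.2 and 1754 CPM (counts scaled to the size of the library after TMM normalisation, which sets libraries on a common scale) in a library, while 10 markers of T cells, monocytes, erythroid cells, megakaryocytes and NK cells together reached at most 6.40 CPM. All levels are relative to the rest of a library of bulk RNA, so more mitochondrial RNA per cell and less nuclear-encoded RNA per cell cannot be told apart.

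Mitochondrial DNA is a small circle that is transcribed from both strands by the polymerase POLRMT with TFAM and TFB2M. Each strand yields a long precursor in which tRNAs lie between the other genes, and excision of the tRNAs by RNase P and ELAC2 frees the mRNAs and rRNAs. The mRNAs encode core subunits of respiratory complexes I, III and IV and of the ATP synthase (complex V), the rRNAs MT-RNR1 and MT-RNR2 form the small and large subunit of the mitochondrial ribosome, and the tRNAs serve translation on that ribosome. The complex of LRPPRC and SLIRP stabilises the mRNAs. B cells, like other nucleated cells, carry many copies of this DNA.

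The genes fill nearly all of the 16569 bases of chromosome M in GRCh38. MT-ND6 and 8 of the 22 tRNA genes are encoded on the minus strand of the reference and the other 28 genes on the plus strand. The tRNA genes are 59 to 75 bases long and the mRNA genes 207 to 1812 bases. The 5 tRNA genes with the most counts all lie on the minus strand, 4 of them side by side, and are shown because they hold most of the tRNA counts. They are given 5′ to 3′ as read on their own strand, in the DNA letters of the reference, with the anticodon in capitals. MT-TA (alanine) lies at chrM:5587-5655, MT-TN (asparagine) at chrM:5657-5729, MT-TC (cysteine) at chrM:5761-5826, MT-TY (tyrosine) at chrM:5826-5891 and MT-TP (proline) at chrM:15956-16023.
MT-TA: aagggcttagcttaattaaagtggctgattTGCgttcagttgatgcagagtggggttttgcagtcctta
MT-TN: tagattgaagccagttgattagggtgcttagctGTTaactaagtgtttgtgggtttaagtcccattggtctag
MT-TC: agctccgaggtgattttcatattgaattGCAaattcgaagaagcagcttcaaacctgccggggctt
MT-TY: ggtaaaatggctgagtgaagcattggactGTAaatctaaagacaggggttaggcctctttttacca
MT-TP: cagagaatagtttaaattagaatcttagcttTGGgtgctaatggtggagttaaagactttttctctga

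Some members share bases with a neighbour, which bears on how reads were divided between them. MT-ATP8 (chrM:8366-8572) and MT-ATP6 (chrM:8527-9207), which encode subunits of the ATP synthase, overlap over 46 bases at chrM:8527-8572 on the plus strand, where the start codon of MT-ATP6 and the stop codon of MT-ATP8 are in capitals. MT-ND4L (chrM:10470-10766) and MT-ND4 (chrM:10760-12137), subunits of complex I, share the 7 bases in capitals within chrM:10748-10778.
MT-ATP8/MT-ATP6: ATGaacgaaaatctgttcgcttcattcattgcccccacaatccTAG
MT-ND4L/MT-ND4: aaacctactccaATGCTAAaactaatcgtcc

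The nuclear genome also holds near-identical copies of mitochondrial genes. MTCO1P12, on chr1:631074-632616, aligns with MT-CO1 over 1543 bases with 20 mismatches (98.64% identity). The 60 bases with the most differences are shown to illustrate how alike the copies are, with the 3 differing bases in capitals. They lie at chrM:6207-6266 in MT-CO1 and at chr1:631377-631436 in the copy, both on the plus strand.
MT-CO1: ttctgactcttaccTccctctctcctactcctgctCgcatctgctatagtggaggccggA
MTCO1P12: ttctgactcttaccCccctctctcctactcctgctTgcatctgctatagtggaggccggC

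Levels in the DMSO libraries are given as CPM per kilobase of gene, with the SD over 3 libraries, so that genes can be compared. Among mRNAs, MT-CO1, MT-CO3 and MT-CO2, the catalytic-core subunits of complex IV, stood highest in that order in all 3 lines. MT-CO1 reached 1579.7 ± 324 in MEC1, 2079 ± 102 in JVM2 and 7359 ± 1079 in EHEB. MT-CO3 followed at 1066 ± 205, 832 ± 9.12 and 1995 ± 303, and MT-CO2 at 551 ± 108, 356 ± 21.1 and 1302 ± 189. These 3 genes did not overlap between the DMSO libraries of a line. The next places were taken by MT-ND4, MT-CYB and MT-ND1 in MEC1, which overlapped with one another, and by MT-CYB in JVM2 (144.2 ± 6.75) and EHEB (477 ± 78.1). The lowest mRNAs were MT-ATP8 in MEC1 (29.4 ± 9.21) and MT-ATP6 in JVM2 (19.5 ± 1.81) and EHEB (57.4 ± 9.18), and in each line the lowest genes overlapped with their neighbours in the order. Counts of MTATP6P1, a nuclear copy of MT-ATP6 not included here, were 51.1% of those of MT-ATP6 in JVM2 and 56.6% in EHEB. The order with these counts added was not computed.

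The rRNAs stood below every mRNA per kilobase in these rRNA-depleted libraries. MT-RNR2 reached 11.4 ± 4.61, 12.3 ± 2.17 and 17.5 ± 3.36 in MEC1, JVM2 and EHEB, and MT-RNR1 2.15 ± 2.26, 1.40 ± 0.414 and 1.96 ± 0.112. How far depletion removed them in each library was not measured. Of the tRNAs, MT-TC was highest in each line, at 227 ± 18.5, 229 ± 24.3 and 464 ± 24.4, and the 8 minus-strand tRNA genes held 71.5% ± 2.36 of tRNA counts in MEC1, 81.8% ± 2.28 in JVM2 and 74.2% ± 0.964 in EHEB. MT-TV and MT-TF were the lowest, with at most 15 and 29 counts in any library. The counts do not tell mature tRNAs from precursors or adjoining transcripts.

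Without drug, mitochondrial genes held a mean of 1.46% of library counts in EHEB, 0.483% in MEC1 and 0.441% in JVM2. These are shares of a library, not amounts per cell, and exposure time differed between the lines. Against JVM2, 33 of 35 tested members were called higher in EHEB by edgeR (adjusted p under 0.05), among them all 13 mRNAs, beside 29.9% of all genes tested. Against MEC1, 25 of 35 were higher, including 12 of 13 mRNAs, beside 35.8% of all genes. The largest difference from MEC1 was that of MT-CO1, at a log2 fold change of 2.25 (SE 0.15). Counts of its nuclear copy MTCO1P12, not included here, were 55.5% of those of MT-CO1 in MEC1 with DMSO and 14.8% in EHEB. The only mRNA not called higher against MEC1 was MT-ND4 at −0.29 (SE 0.15). Against JVM2, MT-CO1 differed by 1.84 (SE 0.15) and MT-TH, the tRNA for histidine, most of all at 2.08 (SE 0.27). Neither rRNA was called in any pair of lines. MEC1 against JVM2 gave 18 members higher (30.1% of all genes) and 1 lower (33.7%), with MT-TE, the tRNA for glutamic acid, the largest at 1.73 (SE 0.38). The 1 lower member was MT-CO1 at −0.41 (SE 0.15), which was not called with library size scaling (adjusted p = 0.164) or without MEC1_37, MEC1_39, JVM2_85, JVM2_86 or JVM2_87 (adjusted p from 0.0526 to 0.111). With the counts of the nuclear copies added, its log2 fold change was 0.04 (adjusted p = 0.828). Without MEC1_38, MT-ND3 was called lower as well (−0.54). No member was called lower in EHEB than in JVM2 or MEC1, beside 29.6% and 31.6% of all genes, and 0 reached an unadjusted p under 0.05 in that direction in edgeR. DESeq2 called 0 lower too, whereas MT-ND4 was called lower in EHEB than in MEC1 with library size scaling (−0.42), and MT-ND4 (−0.41) and MT-TE (−0.82) without MEC1_39.

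The question for each drug is whether the mitochondrial transcripts moved with treatment, and the simplest measure is the share of all counts in a library that fell on each class. For the mRNAs, the DMSO libraries held 0.436, 0.595 and 0.387% of counts in MEC1, and 0.918, 1.03 and 0.764% were found with fludarabine, 0.847, 0.761 and 0.668% with ibrutinib and 0.941, 0.894 and 0.909% with idelalisib. JVM2 held 0.459, 0.428 and 0.411% with DMSO, 0.756, 0.772 and 1.15% with fludarabine, 0.669, 0.723 and 0.816% with ibrutinib and 0.869, 0.873 and 1.01% with idelalisib. EHEB began higher, at 1.64, 1.43 and 1.25% with DMSO, against 2.26, 2.52 and 2.64%, 2.29, 2.26 and 1.65% and 1.59, 1.43 and 2.02% with the 3 drugs. Treated libraries lay above all DMSO libraries of their line in 8 of the 9 comparisons, and overlapped with them for idelalisib in EHEB. With TMM-normalised library sizes in place of total counts they lay above in 7, since ibrutinib in EHEB overlapped too (exact permutation p = 0.2). The mean share was 1.91, 1.61 and 1.94 times that of DMSO in MEC1 with fludarabine, ibrutinib and idelalisib, 2.06, 1.70 and 2.12 times in JVM2, and 1.71, 1.43 and 1.17 times in EHEB. With 3 against 3 libraries the two-sided exact permutation test cannot go below p = 0.1, and it gave 0.1 in those 8 comparisons and 0.4 for idelalisib in EHEB. Stratified over the 3 lines, the exact permutation test gave p = 0.00025 for fludarabine and for ibrutinib, the smallest it can give, and 0.001 for idelalisib (0.000562, 0.000562 and 0.0015 after Benjamini-Hochberg adjustment over 9 tests).

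The tRNA share was higher as well, and as a ratio to DMSO it was smallest in EHEB for each drug. Its mean was 1.80, 1.51 and 1.95 times that of DMSO in MEC1, 1.62, 1.40 and 1.79 times in JVM2 and 1.15, 1.17 and 1.29 times in EHEB, in the order fludarabine, ibrutinib and idelalisib. On total counts the libraries overlapped for ibrutinib in EHEB and in no other comparison, whereas on TMM-normalised library sizes all 3 comparisons of EHEB overlapped (exact permutation p = 0.3, 0.6 and 0.2 with fludarabine, ibrutinib and idelalisib). Exact stratified p-values were 0.00025, 0.002 and 0.00025. The rRNA share was higher with fludarabine over the 3 lines (exact stratified p = 0.00075, adjusted 0.00135), going from 0.00146, 0.00309 and 0.00139% with DMSO to 0.0169, 0.0117 and 0.0146% in MEC1, while the libraries of JVM2 overlapped and the log2 ratio in EHEB went from 1.41 to 0.56 without EHEB_143. For ibrutinib and idelalisib the stratified exact p-values were 0.492 and 0.096. On TMM-normalised library sizes the log2 ratio of the tRNA share in EHEB with fludarabine went from 0.20 to 0.09, and the rRNA share in EHEB with fludarabine overlapped with DMSO (exact permutation p = 0.2).

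**Figure D1:**
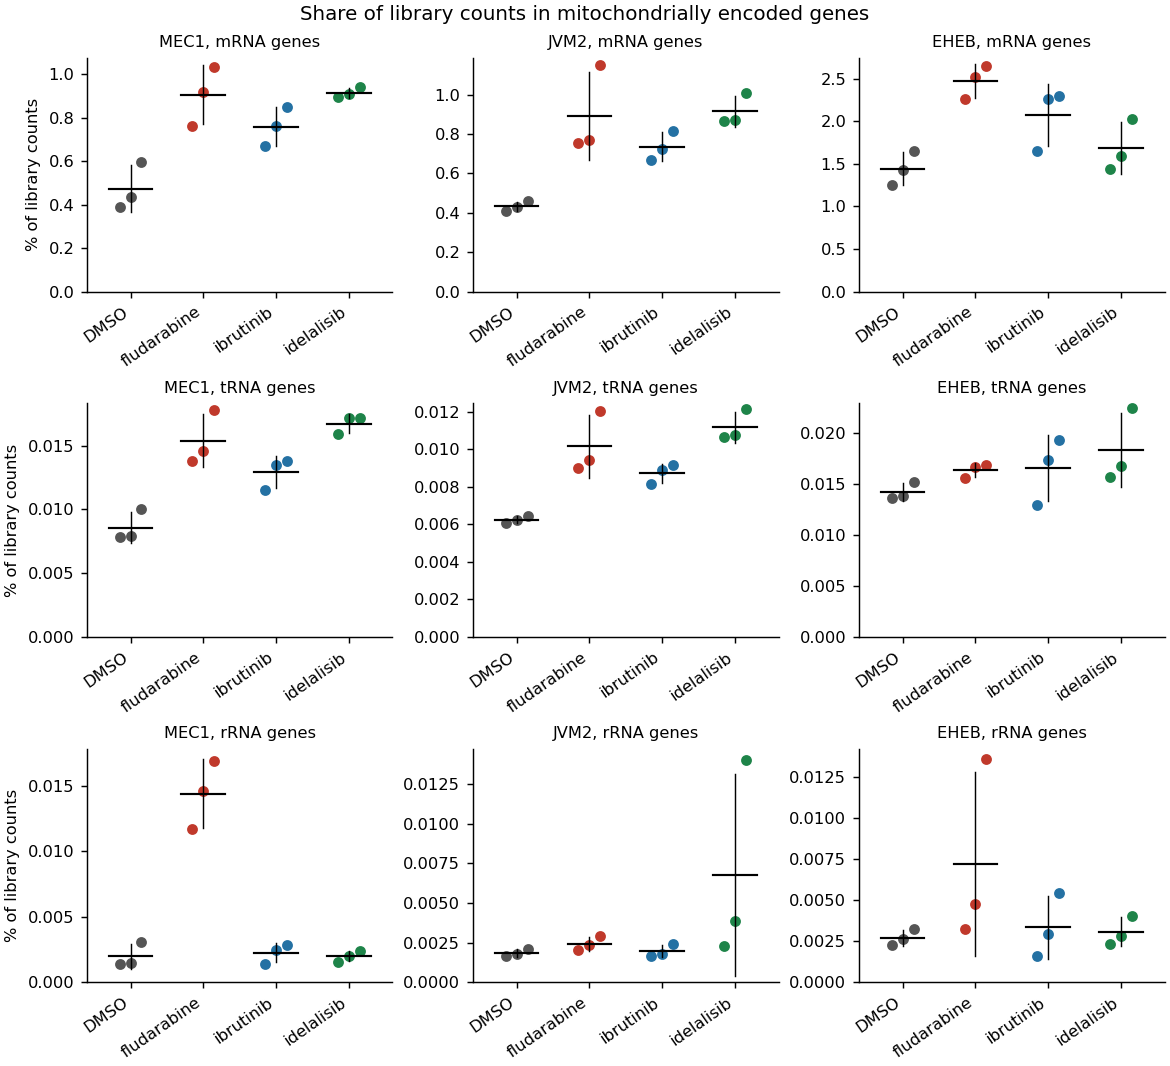
Percent of all library counts that fell on mitochondrial mRNA, tRNA and rRNA genes (rows) in MEC1, JVM2 and EHEB (columns), on linear axes from 0 whose range differs between panels. Points are libraries, horizontal bars means and vertical bars the SD of 3 libraries. Treated libraries sit above the DMSO libraries in 8 of 9 mRNA comparisons, and single libraries stand out for rRNA with idelalisib in JVM2 and fludarabine in EHEB.

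Gene by gene, each drug was compared with DMSO in each line with edgeR's quasi-likelihood F-test. The 3 comparisons of a line share its DMSO libraries. Of 37 members, 36 had enough counts to be tested in MEC1 and 35 in JVM2 and EHEB. MT-TV was tested in none of the lines and MT-TF only in MEC1, where it passed through its fludarabine libraries alone. In MEC1, 23, 24 and 30 members were called higher with fludarabine, ibrutinib and idelalisib, beside 21.2%, 23.7% and 27.6% of all genes tested. JVM2 gave 21, 18 and 30 members, beside 23.9%, 14.5% and 21.6%. In EHEB the numbers were 13, 13 and 15, beside 18.4%, 8.50% and 15.1%. The median log2 fold change of the tested members was 0.63, 0.60 and 1.02 in MEC1, 0.72, 0.73 and 1.06 in JVM2 and 0.52, 0.57 and 0.44 in EHEB, against medians of all genes between −0.0014 and 0.08. No member was called lower in any of the 9 comparisons by edgeR, DESeq2 or limma-voom, and none reached an unadjusted p under 0.05 in that direction in edgeR, although 22.7%, 23.9% and 27.4% of all genes were called lower in MEC1, 23.3%, 15.0% and 22.6% in JVM2 and 19.2%, 11.2% and 18.2% in EHEB.

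Some of these counts leaned on single libraries. With fludarabine in MEC1 the 23 calls became 14 without MEC1_37 (DMSO) and 15 without MEC1_47 (fludarabine), and with ibrutinib in MEC1 the 24 became 15 without MEC1_39. With ibrutinib in EHEB the 13 became 6 without EHEB_134, EHEB_135 or EHEB_280 and 5 without EHEB_281. With idelalisib in EHEB the 15 became 7, 9 and 6 without EHEB_134, EHEB_135 and EHEB_288. Of all 187 calls, 105 were mRNAs, 4 rRNAs and 78 tRNAs, and 85, 3 and 49 of them respectively stood with every single library left out.

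Complex I passes electrons from NADH to ubiquinone, and 7 of its subunits are mitochondrial. Of these 7 mRNAs, 4, 4 and 7 were called higher in MEC1 with fludarabine, ibrutinib and idelalisib, all 7 with each drug in JVM2, and 7, 7 and 6 in EHEB. Over all genes, 21.2%, 23.7% and 27.6% were called higher in MEC1 and 23.9%, 14.5% and 21.6% in JVM2. The shares of all genes in EHEB were 18.4%, 8.50% and 15.1%. MT-ND1 (chrM:3307-4262), the first mRNA after the rRNAs, serves as an example. In MEC1, MT-ND1 stood at 157, 221 and 125 CPM with DMSO, 254, 333 and 242 with fludarabine, 266, 257 and 223 with ibrutinib and 325, 309 and 326 with idelalisib. In JVM2, MT-ND1 stood at 115, 111 and 117 CPM with DMSO, 182, 190.3 and 264 with fludarabine, 190.5, 218 and 214 with ibrutinib and 226, 248 and 281.6 with idelalisib. In EHEB, MT-ND1 stood at 274, 231 and 211 CPM with DMSO, 363, 432 and 458 with fludarabine, 443, 459 and 351 with ibrutinib and 296, 239.5 and 429.7 with idelalisib. Every treated library lay above every DMSO library of its line except with idelalisib in EHEB. The rise was largest with idelalisib in JVM2 (log2 fold change 1.13, SE 0.13, adjusted p = 5.60e-05), while idelalisib in EHEB gave log2 fold change 0.42, SE 0.19, adjusted p = 0.119.

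MT-ND5 (chrM:12337-14148), the longest mRNA, encodes a proton-pumping subunit of complex I. In MEC1, MT-ND5 stood at 122, 195 and 99.4 CPM with DMSO, 176, 271 and 154 with fludarabine, 239.3, 263 and 194 with ibrutinib and 329.9, 337 and 361 with idelalisib. In JVM2, MT-ND5 stood at 109, 98.8 and 111 CPM with DMSO, 166, 163 and 249 with fludarabine, 158, 211 and 186.4 with ibrutinib and 196, 228 and 243 with idelalisib. In EHEB, MT-ND5 stood at 325, 287.9 and 309 CPM with DMSO, 526, 664 and 756 with fludarabine, 604, 639 and 382 with ibrutinib and 462, 371 and 748 with idelalisib. The DMSO library MEC1_38 was the highest of its group and overlapped with the fludarabine and ibrutinib libraries, and the other 7 comparisons had no overlap. MT-ND5 was called higher in 8 of 9 comparisons, with log2 fold changes from 0.50 (fludarabine in MEC1, not called, SE 0.25, adjusted p = 0.132) to 1.37 (idelalisib in MEC1, SE 0.25, adjusted p = 0.000787). In EHEB the call with ibrutinib was lost without a filter (adjusted p = 0.0562) and with limma-voom (0.0512). That with idelalisib in EHEB was lost with limma-voom (0.0562). With 1 library left out, these calls held in 1 and 2 of 6 fits, and that with ibrutinib in MEC1 in 2 of 6.

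MT-ND6 (chrM:14149-14673) is the only mRNA encoded on the minus strand and lies next to MT-ND5, from whose transcripts it could not be told apart if reads were counted without strand, which the sources used here do not state. In MEC1, MT-ND6 stood at 14.98, 28.6 and 13.5 CPM with DMSO, 22.1, 35.2 and 18.6 with fludarabine, 28.8, 28.0 and 18.8 with ibrutinib and 30.1, 35.4 and 44.7 with idelalisib. In JVM2, MT-ND6 stood at 14.1, 11.1 and 10.8 CPM with DMSO, 19.2, 17.0 and 27.04 with fludarabine, 18.5, 26.9 and 22.9 with ibrutinib and 21.6, 27.7 and 25.7 with idelalisib. In EHEB, MT-ND6 stood at 29.8, 29.1 and 36.04 CPM with DMSO, 68.3, 83.2 and 94.9 with fludarabine, 67.8, 83.6 and 48.3 with ibrutinib and 62.0, 43.2 and 103 with idelalisib. It was called higher in 7 of 9 comparisons and missed the threshold with fludarabine and ibrutinib in MEC1, where MEC1_38 was again high. With fludarabine in EHEB every treated library was at 68.3 CPM or more against at most 36.04 with DMSO (log2 fold change 1.38, SE 0.29, adjusted p = 0.00289).

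The other complex I subunits followed with their own ranges. MT-ND3 was called in all 9 comparisons, with log2 fold changes from 0.71 to 1.77. MT-ND2, MT-ND4 and MT-ND4L were called in 8 each, and their log2 fold changes ranged from 0.48 to 1.19, from 0.07 to 1.26 and from 0.33 to 1.38. With ibrutinib in MEC1 the neighbours MT-ND4 (log2 fold change 0.07, SE 0.18, adjusted p = 0.756) and MT-ND4L (0.33, SE 0.21) were not called, whereas MT-ND3, upstream of both, was (1.26, SE 0.22, adjusted p = 0.000615). MT-ND2 with idelalisib in EHEB was lost without a filter, with limma-voom, in the fit of only the 6 libraries and with nuclear copies added (adjusted p from 0.0536 to 0.0833), and without EHEB_133, EHEB_134, EHEB_135 or EHEB_288 (0.0522 to 0.164).

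MT-CYB (chrM:14747-15887) encodes cytochrome b, the only mitochondrially encoded subunit of complex III, and was called higher in all 9 comparisons. In MEC1, MT-CYB stood at 218, 306 and 193 CPM with DMSO, 411, 446 and 324 with fludarabine, 525, 463 and 419.9 with ibrutinib and 617, 579 and 636 with idelalisib. In JVM2, MT-CYB stood at 173, 163 and 158 CPM with DMSO, 257, 265 and 376 with fludarabine, 336, 364 and 397 with ibrutinib and 463, 484 and 559.6 with idelalisib. In EHEB, MT-CYB stood at 644, 514 and 474 CPM with DMSO, 992, 1107 and 1209 with fludarabine, 1148, 1172 and 907 with ibrutinib and 748, 633 and 1040.1 with idelalisib. Treated libraries exceeded all DMSO libraries except the idelalisib library EHEB_287, which overlapped. The log2 fold changes were 0.69, 1.02 and 1.41 in MEC1, 0.87, 1.14 and 1.60 in JVM2 and 1.03, 0.98 and 0.56 in EHEB with fludarabine, ibrutinib and idelalisib, with SE from 0.14 to 0.18 and adjusted p from 5.76e-06 to 0.0316. For idelalisib in EHEB the call was lost in the fit of only its 6 libraries (adjusted p = 0.0698) and without EHEB_134, EHEB_135 or EHEB_288 (0.0893, 0.1 and 0.125).

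Complex IV, cytochrome c oxidase, reduces oxygen with a catalytic core of MT-CO1, MT-CO2 and MT-CO3. All 3 mRNAs were called higher with each drug in MEC1 and JVM2, and 3, 2 and 0 of them in EHEB with fludarabine, ibrutinib and idelalisib. Over all genes, 14.5% to 27.6% were called higher in the comparisons of MEC1 and JVM2, and 18.4%, 8.50% and 15.1% in EHEB. The call of MT-CO1 with ibrutinib in MEC1 was lost without a filter (adjusted p = 0.064). With 1 library left out it held in 2 of 6 fits, as did each of the 2 calls with ibrutinib in EHEB, MT-CO2 and MT-CO3. In MEC1, MT-CO1 (chrM:5904-7445) stood at 2303, 2988 and 2017 CPM with DMSO, 4156, 4605 and 3430.1 with fludarabine, 3741, 3113 and 2897 with ibrutinib and 4843, 4252 and 4837 with idelalisib. In JVM2, MT-CO1 stood at 3351, 3226 and 3038 CPM with DMSO, 4987, 4938 and 7048 with fludarabine, 4522, 4656 and 5503 with ibrutinib and 5801, 5607 and 6498 with idelalisib. In EHEB, MT-CO1 stood at 12993, 11382 and 9666 CPM with DMSO, 15833, 17240.4 and 17897 with fludarabine, 15434, 14563 and 11546 with ibrutinib and 11248, 10203 and 13343 with idelalisib. The ibrutinib libraries MEC1_186 and EHEB_282 overlapped with DMSO, as did the idelalisib libraries EHEB_286 and EHEB_287. The log2 fold changes were 0.71, 0.46 and 0.99 in MEC1, 0.83, 0.60 and 0.89 in JVM2 and 0.59, 0.29 and 0.02 in EHEB, with SE of 0.13 to 0.15, and the last 2 of EHEB were not called (adjusted p = 0.169 and 0.914). MT-CO2 and MT-CO3 with idelalisib in EHEB had log2 fold changes of 0.34 (SE 0.17) and −0.11 (SE 0.13), the latter the only mRNA below 0 in any comparison of a drug with DMSO, and neither was called.

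The ATP synthase mRNAs MT-ATP8 and MT-ATP6 were among those with the largest log2 fold changes in most comparisons. MT-ATP8 was called in all 9 and had the largest log2 fold change of the mRNAs in 5, among them MEC1 with ibrutinib (log2 fold change 1.49, SE 0.23, adjusted p = 0.000248) and idelalisib (log2 fold change 1.87, SE 0.23, adjusted p = 3.35e-05), and in JVM2 with fludarabine (1.28, SE 0.26). Every treated library was above every DMSO library for this gene in all 9 comparisons. MT-ATP6 was called in 8, at log2 fold changes of 1.26, 1.22 and 1.499 in JVM2 and 1.42, 1.25 and 0.92 in EHEB, and missed the threshold with fludarabine in MEC1 (log2 fold change 0.52, SE 0.24, adjusted p = 0.105). Its nuclear copy MTATP6P1 held 0.17% of the counts of MT-ATP6 in the DMSO library MEC1_39. In the other DMSO libraries of MEC1 it held 52.1% and 54.6%, and with fludarabine 53.7% to 68.2%. MT-ATP8 had the fewest counts of the mRNAs, from 145 to 2056 per library. In the fit of only the 6 libraries the call of this gene in fludarabine-treated MEC1 was lost (adjusted p = 0.0578), as it was without MEC1_37, MEC1_39 or MEC1_47 (0.0876, 0.0888 and 0.111).

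**Figure D2:**
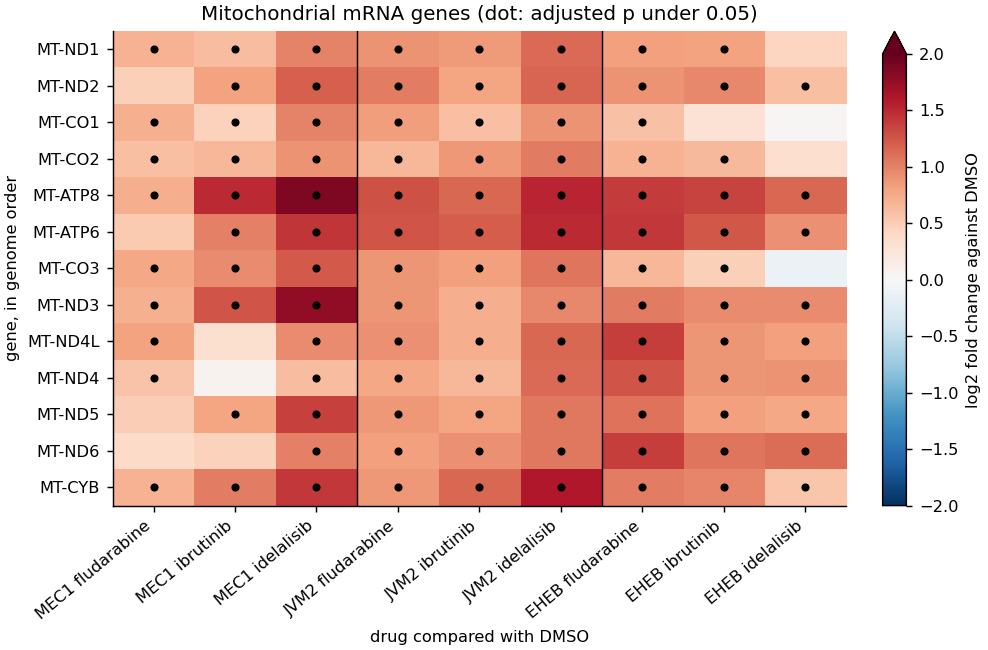
Log2 fold change against DMSO (colour, red higher and blue lower) of the 13 mitochondrial mRNA genes in genome order (rows) for each drug and line (columns), from the fits of each line. Dots mark adjusted p under 0.05. All squares of JVM2 carry a dot, and in the EHEB idelalisib column MT-ND1, MT-CO1, MT-CO2 and MT-CO3 carry none.

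Since the mRNAs did not all move alike, their shares of the summed mitochondrial mRNA counts were compared as a description, which does not depend on scaling between libraries. Complex IV mRNAs made up 89.0% ± 0.640 (SD, n = 3) of this sum in EHEB with DMSO, and 85.5% ± 1.01, 84.5% ± 0.953 and 84.0% ± 2.29 with fludarabine, ibrutinib and idelalisib, with all treated libraries below all DMSO libraries. Complex I mRNAs went from 7.11% ± 0.583 to 9.42% ± 0.783, 9.62% ± 0.793 and 10.6% ± 1.80 in that line, again without overlap. In MEC1 complex I held 17.2% ± 1.01 with DMSO and 16.1% ± 1.31, 15.6% ± 1.34 and 16.3% ± 0.724 with the drugs, with overlap. In JVM2 it held 10.1% ± 0.758 with DMSO and 10.2% ± 0.143, 10.6% ± 1.14 and 11.01% ± 0.775 with the drugs, also with overlap. The share of MT-CYB was higher with ibrutinib and idelalisib in every library of all 3 lines, from 5.03% ± 0.151 to 6.69% ± 0.0712 and 6.48% ± 0.120 in MEC1 and from 3.46% ± 0.0587 to 4.73% ± 0.0577 and 5.32% ± 0.109 in JVM2. With fludarabine it was 5.04% ± 0.171 in MEC1 and 3.54% ± 0.0636 in JVM2, overlapping with DMSO, and 4.51% ± 0.143 against 3.51% ± 0.152 in EHEB, without overlap. The share of the ATP synthase mRNAs was above DMSO in every treated library except with fludarabine in MEC1, for example 0.353% ± 0.0151 against 0.635% ± 0.0824 with ibrutinib in EHEB. Counts of nuclear copies are not part of these shares. They differed between lines for MTCO1P12 and among the MEC1 DMSO libraries for MTATP6P1.

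For the tRNAs, which carry amino acids to the mitochondrial ribosome, the lines differed in how many were called. In MEC1, 12, 14 and 17 of 21 tested tRNA genes were called higher with fludarabine, ibrutinib and idelalisib, with medians of 0.55, 0.49 and 1.02 on the log2 scale, beside 21.2%, 23.7% and 27.6% of all genes called higher. In JVM2, 8, 5 and 15 of 20 were called (medians 0.58, 0.62 and 0.95), beside 23.9%, 14.5% and 21.6% of all genes. In EHEB, 0, 1 and 6 of 20 were called (medians 0.12, 0.42 and 0.35), beside 18.4%, 8.50% and 15.1% of all genes, so that only the share with idelalisib was above that of all genes in this line. The 0 of 20 in fludarabine-treated EHEB cells came with calls of all 13 mRNAs in the same libraries, and 0 of the 20 reached an unadjusted p under 0.05 in edgeR. DESeq2 and limma-voom called 0 as well. The tRNA for histidine, MT-TH, was called in 7 of 9 comparisons, the most of any tRNA gene. With fludarabine in MEC1 the call was lost without a filter (adjusted p = 0.0536) and in the joint fit (0.0511). The fit of only 6 libraries lost it too (0.0517). With ibrutinib in EHEB the call was lost without a filter (0.078) and with limma-voom (0.0531). With 1 library left out, these calls held in 3 and 1 of 6 fits. Those with ibrutinib in JVM2 and idelalisib in EHEB held in 3 and 5. The 6 calls of MT-TC held in every such fit. MT-TI, MT-TM and MT-TE, which have few counts, were called in no comparison.

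MT-TC was the tRNA gene with the most counts and is the first of 3 whose libraries are given in full. In MEC1, MT-TC stood at 14.2, 16.4 and 14.5 CPM with DMSO, 19.3, 24.3 and 20.9 with fludarabine, 21.6, 20.8 and 18.9 with ibrutinib and 29.1, 28.0 and 30.7 with idelalisib. In JVM2, MT-TC stood at 15.1, 13.6 and 16.8 CPM with DMSO, 20.4, 21.3 and 24.5 with fludarabine, 19.6, 21.0 and 20.1 with ibrutinib and 25.2, 24.1 and 28.1 with idelalisib. In EHEB, MT-TC stood at 32.4, 30.3 and 29.2 CPM with DMSO, 32.5, 34.4 and 32.5 with fludarabine, 29.7, 30.4 and 24.4 with ibrutinib and 34.8, 27.7 and 43.5 with idelalisib. All treated libraries lay above DMSO in MEC1 and JVM2, and in EHEB ibrutinib and idelalisib libraries overlapped with DMSO. The log2 fold changes were 0.49, 0.49 and 1.02 in MEC1, 0.55, 0.41 and 0.76 in JVM2 and 0.12, −0.12 and 0.20 in EHEB, the 6 of MEC1 and JVM2 called (adjusted p from 7.26e-06 to 0.0108) and the 3 of EHEB not (0.537, 0.605 and 0.322).

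MT-TN lies 31 bases from MT-TC on the same strand, and an origin of replication is known to lie between them. In MEC1, MT-TN stood at 14.0, 14.5 and 12.9 CPM with DMSO, 17.1, 19.8 and 15.9 with fludarabine, 19.8, 17.0 and 16.2 with ibrutinib and 24.0, 24.4 and 27.7 with idelalisib. In JVM2, MT-TN stood at 12.8, 12.9 and 13.6 CPM with DMSO, 15.7, 16.1 and 18.1 with fludarabine, 15.3, 15.3 and 16.7 with ibrutinib and 18.5, 16.9 and 21.3 with idelalisib. In EHEB, MT-TN stood at 21.6, 20.3 and 21.8 CPM with DMSO, 24.7, 24.6 and 22.1 with fludarabine, 19.0, 22.3 and 19.0 with ibrutinib and 26.5, 27.8 and 32.9 with idelalisib. The groups separated from DMSO in 8 of 9 comparisons, the exception being ibrutinib in EHEB. It was called in 6, fludarabine in MEC1 and JVM2 among them. With idelalisib it was called in all 3 lines, at 0.94 (SE 0.11), 0.52 (SE 0.09) and 0.44 (SE 0.10) on the log2 scale. Ibrutinib gave 0.40 in MEC1, which was called, and 0.26 in JVM2 (adjusted p = 0.067) and −0.08 in EHEB, which were not.

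MT-TP lies apart from the others, at the far end of the gene order beside MT-TT. In MEC1, MT-TP stood at 10.6, 13.8 and 11.8 CPM with DMSO, 18.8, 26.4 and 19.7 with fludarabine, 15.6, 15.4 and 13.4 with ibrutinib and 25.0, 21.1 and 24.2 with idelalisib. In JVM2, MT-TP stood at 8.27, 8.67 and 9.52 CPM with DMSO, 10.4, 12.6 and 13.1 with fludarabine, 10.8, 10.8 and 11.1 with ibrutinib and 13.3, 12.7 and 15.5 with idelalisib. In EHEB, MT-TP stood at 27.6, 24.3 and 22.4 CPM with DMSO, 23.3, 21.4 and 25.1 with fludarabine, 30.8, 29.8 and 24.7 with ibrutinib and 20.5, 21.4 and 27.3 with idelalisib. It was called with fludarabine and idelalisib in MEC1 (0.81 and 1.02, both SE 0.15) and in JVM2 (0.46 and 0.65, both SE 0.11), and was not called with ibrutinib or in EHEB, where its log2 fold changes were −0.08, 0.20 and −0.11. Treated libraries overlapped with DMSO in all 3 comparisons of EHEB and with ibrutinib in MEC1.

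Split by strand, a property that the choice of genes did not use, the 8 minus-strand tRNA genes moved by medians of 0.40, 0.46 and 1.01 (MEC1) and 0.51, 0.40 and 0.76 (JVM2) on the log2 scale with fludarabine, ibrutinib and idelalisib, and 4, 5 and 7 and 5, 2 and 6 of them were called. The plus-strand tRNA genes, 13 tested in MEC1 and 12 in JVM2, gave medians of 0.91, 0.79 and 1.25 and 0.62, 0.74 and 1.07, and 8, 9 and 10 and 3, 3 and 9 were called. In EHEB the medians were 0.15, 0.09 and 0.32 on the minus strand and 0.09, 0.51 and 0.35 on the plus strand. The plus-strand figures for fludarabine in MEC1 include MT-TF, which passed the filter through its fludarabine libraries alone and had to differ. Without this gene, 11 of 20 tRNA genes on both strands together were called in that comparison. Beside the counts by strand, the percentages of all genes called higher were 21.2, 23.7 and 27.6 (MEC1) and 23.9, 14.5 and 21.6 (JVM2). The difference between strands was not tested.

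The largest called log2 fold change with fludarabine in MEC1 belonged to MT-TF, the phenylalanine tRNA gene next to MT-RNR1, which had 25, 29 and 26 counts against 0, 4 and 4 with DMSO. None of its other MEC1 libraries exceeded 7 counts, so it passed the filter through the fludarabine libraries alone and had to differ. Its log2 fold change (log2 fold change 3.49, SE 1.05, adjusted p = 0.0193) rests on DMSO counts near 0, and the call was lost without MEC1_37, MEC1_38 or MEC1_48 (adjusted p from 0.0514 to 0.0578). Without MT-TF, 22 of 35 tested members and 11 of 20 tRNA genes were called higher in that comparison. Among the other tRNA genes there, the largest called rise was that of MT-TK, the lysine tRNA gene (log2 fold change 1.12, SE 0.30, adjusted p = 0.0114). With idelalisib, the largest in MEC1 was MT-TS2, a serine tRNA gene (log2 fold change 1.61, SE 0.20, adjusted p = 4.74e-05), and in JVM2 MT-TL2, a leucine tRNA gene, and MT-TR, the arginine tRNA gene, both reached 1.58 (SE 0.39 and 0.40). In EHEB idelalisib gave MT-TR 1.45 (SE 0.49, adjusted p = 0.0422), the largest called rise of any member in that comparison, which was not called without a filter (0.0552), with limma-voom (0.065) or without EHEB_133, EHEB_134, EHEB_286 or EHEB_288 (0.0531 to 0.172).

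**Figure D3:**
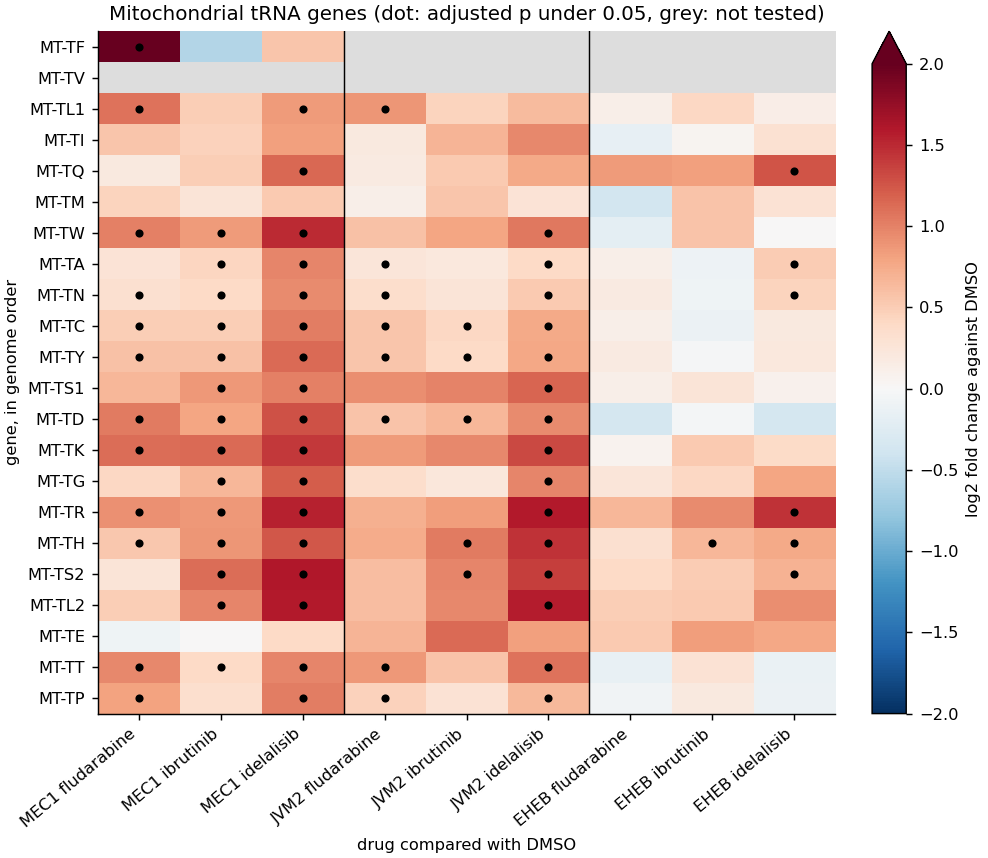
Log2 fold change against DMSO (colour, red higher and blue lower) of the 22 mitochondrial tRNA genes in genome order (rows) for each drug and line (columns). The colour scale ends at 2, dots mark adjusted p under 0.05 and grey squares were not tested. The MEC1 and JVM2 idelalisib columns hold 17 and 15 dots, and the EHEB fludarabine column has none.

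The rRNAs of the mitochondrial ribosome were called higher in 4 of 18 tests, and a few libraries stood far above the rest. In the same comparisons 8.50% to 27.6% of all genes were called higher, a range that includes the share of the rRNAs. In MEC1, MT-RNR1 (chrM:648-1601) stood at 0.705, 4.54 and 0.896 CPM with DMSO, 24.4, 15.1 and 21.0 with fludarabine, 0.625, 1.88 and 1.60 with ibrutinib and 1.28, 1.43 and 1.53 with idelalisib. In JVM2, MT-RNR1 stood at 1.78, 1.04 and 1.18 CPM with DMSO, 2.51, 1.33 and 2.08 with fludarabine, 0.943, 1.28 and 1.98 with ibrutinib and 6.14, 1.98 and 5.30 with idelalisib. In EHEB, MT-RNR1 stood at 1.94, 1.74 and 1.92 CPM with DMSO, 2.47, 28.0 and 2.10 with fludarabine, 1.12, 9.16 and 2.08 with ibrutinib and 0, 0.960 and 4.20 with idelalisib. The 3 fludarabine libraries of MEC1 were far above all others of the line, the fludarabine library EHEB_143 stood highest in EHEB, followed by the ibrutinib library EHEB_281, and the idelalisib libraries JVM2_238 and JVM2_240 stood highest in JVM2. The idelalisib library EHEB_286 had 0 counts. In MEC1 the rise with fludarabine was log2 fold change 3.25, SE 0.61, adjusted p = 0.00123, and it was called with each library left out and under each alternative. Its size leaned on the DMSO library MEC1_38, which was the highest of its group, and the log2 fold change was 4.62 without that library and 2.84 to 3.42 without any one of the others.

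MT-RNR2 (chrM:1671-3229), the large-subunit rRNA, had its highest values in the same groups. In MEC1, MT-RNR2 stood at 14.1, 26.0 and 13.1 CPM with DMSO, 120.1, 86.4 and 105 with fludarabine, 12.7, 23.5 and 21.8 with ibrutinib and 15.04, 21.8 and 20.4 with idelalisib. In JVM2, MT-RNR2 stood at 16.0, 18.9 and 22.8 CPM with DMSO, 25.9, 21.6 and 16.3 with fludarabine, 18.2, 16.4 and 22.8 with ibrutinib and 138, 22.01 and 34.7 with idelalisib. In EHEB, MT-RNR2 stood at 32.8, 22.5 and 26.4 CPM with DMSO, 45.2, 105 and 30.0 with fludarabine, 14.9, 43.4 and 29.0 with ibrutinib and 28.4, 22.6 and 36.6 with idelalisib. The MEC1 fludarabine libraries again did not overlap with DMSO (log2 fold change 2.52, SE 0.30, adjusted p = 5.25e-05), nor with the ibrutinib and idelalisib libraries. Both rRNAs were called with idelalisib in JVM2, MT-RNR1 at log2 fold change 1.75, SE 0.44, adjusted p = 0.00807 and MT-RNR2 at log2 fold change 1.75, SE 0.55, adjusted p = 0.0233. Without JVM2_238 the log2 fold change of MT-RNR2 was 0.56 and no longer called (adjusted p = 0.0959), and it was also lost without JVM2_85 (0.075) or JVM2_86 (0.0663), with limma-voom (0.11) and in the fit of only the 6 libraries (0.0738). MT-RNR1 was lost in the joint fit of 36 libraries (0.153). In EHEB with fludarabine, MT-RNR1 had a log2 fold change of 2.55 with an SE of 1.25 and was not called. The 18S and 28S genes of the cytosolic ribosome were not analysed here.

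Cytosolic 5.8S rRNA, which is transcribed from nuclear DNA, was looked at after its values were seen, as the sum of the near-identical genes RNA5-8SN1 to RNA5-8SN5. In MEC1 the sum stood at 10.9, 12.4 and 7.71 CPM with DMSO, 20.01, 21.9 and 20.5 with fludarabine, 1.29, 1.96 and 1.72 with ibrutinib and 2.04, 1.25 and 0.988 with idelalisib. The fludarabine libraries of MEC1 were above DMSO, as they were for MT-RNR1 and MT-RNR2, at 2.01 times the mean, whereas the ibrutinib and idelalisib libraries were below all DMSO libraries, at 0.160 and 0.138 times, with neither mitochondrial rRNA called. In JVM2 the sum stood at 17.5, 20.5 and 25.3 CPM with DMSO, 23.1, 19.9 and 16.6 with fludarabine, 14.3, 12.4 and 13.8 with ibrutinib and 26.4, 12.1 and 11.8 with idelalisib. JVM2_238, without which the call of MT-RNR2 with idelalisib was lost, had the highest 5.8S sum of its line, while ibrutinib lay below DMSO and the other drugs overlapped with it. In EHEB the sum stood at 6.45, 5.16 and 4.27 CPM with DMSO, 8.09, 4.62 and 3.55 with fludarabine, 2.06, 2.68 and 9.74 with ibrutinib and 4.10, 4.31 and 5.07 with idelalisib. All 3 drugs overlapped with DMSO there, and EHEB_143, the highest library for both mitochondrial rRNAs, lay within the DMSO range. The part of rRNA depletion in the mitochondrial rRNA values was not tested.

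**Figure D4:**
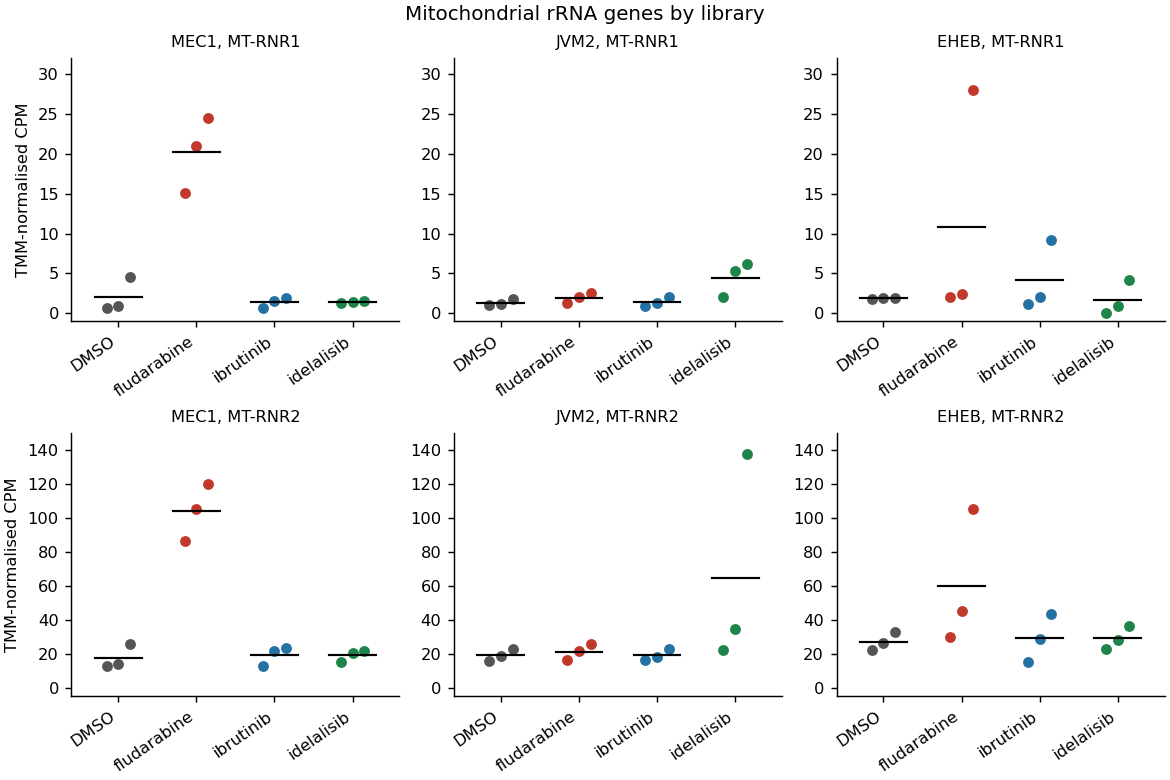
TMM-normalised CPM of MT-RNR1 (top) and MT-RNR2 (bottom) in each library of MEC1, JVM2 and EHEB, with bars at the mean of 3 libraries. The fludarabine libraries of MEC1 stand above the other 9 of that line for both genes, and 1 idelalisib library of JVM2 and 1 fludarabine library of EHEB stand apart.

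Ibrutinib and idelalisib libraries carry neighbouring numbers, so these 2 inhibitors of B-cell receptor signalling can be compared without the break in numbering. In MEC1, 7 members were called higher with idelalisib than with ibrutinib (6.01% of all genes) and 0 lower (9.37%). They were MT-CO1 at 0.53 (SE 0.15) and the tRNAs MT-TA, MT-TN, MT-TC, MT-TY, MT-TT and MT-TP, the last the largest at 0.68 (SE 0.15). Of the 36 tested members, 35 had a log2 fold change above 0. The count was 13 in the fit of only the 6 libraries, and 4 without MEC1_186 or MEC1_192. In JVM2, 7 were called higher (8.21%) and 0 lower (10.5%), namely MT-CYB, MT-ND4, both rRNAs, MT-TC, MT-TY and MT-TP, among which MT-CYB differed by 0.46 (SE 0.14) and MT-RNR2 by 1.77 (SE 0.55). That count was 2 without a filter and in the joint fit, and 0, 1, 2, 1, 4 and 1 without JVM2_232, JVM2_233, JVM2_234, JVM2_238, JVM2_239 and JVM2_240. In EHEB, MT-TA at 0.61 (SE 0.11) and MT-TN at 0.53 (SE 0.10) were called higher with idelalisib (6.77%), and MT-CO3 lower at −0.60 (SE 0.13) (9.09%). Without EHEB_288, 5 members were lower there. In MEC1 and JVM2 the 0 lower calls held with DESeq2 and limma-voom, and 0 members reached an unadjusted p under 0.05 in that direction in edgeR.

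Differences among the 3 lines in the response to a drug were tested with an interaction term of line and treatment. With fludarabine, 5 of 37 members passed (39.1% of all genes), namely MT-RNR2 and the tRNAs MT-TC, MT-TD, MT-TT and MT-TP. With ibrutinib, 5 of 35 passed (33.6%), MT-ND4 and the tRNAs MT-TA, MT-TN, MT-TC and MT-TY. With idelalisib, 12 of 35 passed (45.7%), including MT-CO3 (adjusted p = 7.32e-05), MT-CO1 (0.00096) and MT-CYB (0.00525), whose log2 fold changes were 1.23, 1.07 and −0.11, 0.99, 0.89 and 0.02 and 1.41, 1.60 and 0.56 in MEC1, JVM2 and EHEB. The share of members that passed was below that of all genes for each drug. The count with idelalisib was 22 without EHEB_288, that with fludarabine was 8 without MEC1_38, and that with ibrutinib was 3 without EHEB_280 or EHEB_282.

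The nuclear copies bear on how far single genes can be trusted, because reads of a copy and of its mitochondrial gene can be assigned to either, and how the authors treated reads with several matches is not given in the sources used here. MTCO1P12 held 55.5% ± 3.74, 52.8% ± 1.60, 54.1% ± 1.55 and 52.7% ± 0.863 of the counts of MT-CO1 in MEC1 with DMSO, fludarabine, ibrutinib and idelalisib. In JVM2 the figures were 13.5% ± 0.245, 13.4% ± 0.0399, 12.9% ± 0.174 and 13.3% ± 0.393, and in EHEB 14.8% ± 0.444, 15.4% ± 0.660, 15.2% ± 0.379 and 14.8% ± 0.130. All MEC1 libraries were above all those of the other lines. MTND2P28, a copy of MT-ND2 at chr1:629640-630683 (98.37% identity), held 56.1 to 69.3% of the counts of MT-ND2 over the 36 libraries, and MTATP6P1, a copy of MT-ATP6 at chr1:633696-634376 (98.53%), held 0.17 to 69.5%, with a single count in the DMSO library MEC1_39. MTCO3P12, MTCO2P12 and MTND1P23 each stayed at or under 1.72% of their gene. MTND2P28 was called higher in 8 of 9 comparisons and MTCO1P12, MTCO3P12 and MTND1P23 in 7 each. With copies added to their gene, 1 of the 187 calls of members was lost, that of MT-ND2 with idelalisib in EHEB, and 1 was gained.

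Nuclear genes that serve mitochondrial expression were called in both directions. Of the 7 genes of the transcription machinery, 0 were called higher and 5 lower with fludarabine in MEC1, 0 and 3 in JVM2 and 0 and 0 in EHEB. Ibrutinib gave 4 higher and 1 lower in MEC1, 1 and 1 in JVM2 and 0 of either in EHEB. Idelalisib gave 5 higher and 1 lower, 0 higher and 2 lower, and 0 higher and 1 lower in the same order. The share called higher was above that of all genes in 2 of the 9 comparisons, ibrutinib and idelalisib in MEC1, and the share called lower in 3, fludarabine in MEC1 and JVM2 and idelalisib in JVM2 (over all genes, 8.50% to 27.6% were called higher and 11.2% to 27.4% lower in the 9 comparisons, as given above for each). Medians of this list lay between −0.48 and 0.44. POLRMT, the RNA polymerase, was called lower in the 6 comparisons of MEC1 (−0.48, −0.45 and −0.79) and JVM2 (−0.22, −0.18 and −0.46) and in none of EHEB (−0.03, −0.00011 and 0.18). TFAM, which packages the DNA and starts transcription, was called lower with fludarabine in MEC1 (−0.43) and higher with ibrutinib and idelalisib there (0.21 and 0.24) and with ibrutinib in JVM2 (0.23). TEFM, an elongation factor, was called with ibrutinib (0.88) and idelalisib (1.19) in MEC1 and in no other comparison. TFB2M, which opens the promoter for POLRMT, was higher in the same comparisons (0.80 and 1.06) and lower with fludarabine in MEC1 and JVM2 (−0.67 and −0.42). MRPL12, a ribosomal protein that also binds POLRMT, was called lower in 4 comparisons.

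Of 18 genes of mitochondrial RNA processing and stability, the calls in MEC1 were 2 higher and 4 lower with fludarabine, 10 higher and 0 lower with ibrutinib and 9 higher and 3 lower with idelalisib. In JVM2 they were 8 higher and 1 lower with fludarabine, 6 higher and 0 lower with ibrutinib and 5 higher and 4 lower with idelalisib. In EHEB they were 7 higher and 2 lower with fludarabine, 3 higher and 0 lower with ibrutinib and 1 higher and 3 lower with idelalisib. The share called higher was above that of all genes in 7 of 9 comparisons, the exceptions being fludarabine in MEC1 and idelalisib in EHEB, and the share called lower in 0. LRPPRC was called lower in 6 comparisons and higher in none, with log2 fold changes from −0.63 to −0.07, whereas its partner SLIRP was called higher in 4 (0.64 and 0.80 in MEC1, 0.51 in JVM2 and 0.51 in EHEB). FASTKD1, a mitochondrial RNA-binding protein, was called higher in 7 comparisons (0.04 to 1.15 over all 9) and FASTKD5, which processes precursors without flanking tRNAs, in 5. PNPT1, the polynucleotide phosphorylase of mitochondrial RNA decay, was higher in 5, with ibrutinib and idelalisib in MEC1 (1.25 and 1.35) and with all drugs in JVM2.

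Among 13 genes of mitochondrial DNA maintenance and nucleotide supply, the calls in MEC1 were 0 higher and 4 lower with fludarabine, 4 higher and 3 lower with ibrutinib and 6 higher and 3 lower with idelalisib. Those in JVM2 were 2 higher and 3 lower with fludarabine, 1 higher and 2 lower with ibrutinib and 1 higher and 4 lower with idelalisib. Those in EHEB were 2 higher and 2 lower with fludarabine, 1 higher and 0 lower with ibrutinib and 3 higher and 2 lower with idelalisib. The shares called higher and lower were each above those of all genes in 3 of 9 comparisons. POLG, the DNA polymerase, was lower in all 6 comparisons of MEC1 and JVM2 (−0.87 to −0.28) and higher with idelalisib in EHEB (0.26). RRM2B, a subunit of ribonucleotide reductase, was called in 7 comparisons, 4 higher and 3 lower. With fludarabine it was higher in JVM2 (1.28) and EHEB (1.06) and was not called in MEC1 (0.10). TYMP, thymidine phosphorylase, was called in 7 comparisons, 5 higher and 2 lower, and TOP1MT, the mitochondrial topoisomerase, was lower in 4. For 10 genes of rRNA modification and ribosome assembly, the calls were 1 higher and 4 lower with fludarabine, 2 higher and 3 lower with ibrutinib and 2 higher and 5 lower with idelalisib in MEC1. JVM2 gave 2 higher and 0 lower with fludarabine, 1 higher and 0 lower with ibrutinib and 1 higher and 3 lower with idelalisib. EHEB gave 1 higher and 1 lower with fludarabine, 1 higher and 0 lower with ibrutinib and 1 higher and 0 lower with idelalisib. The share of this list called higher was above that of all genes in 1 comparison and the share called lower in 4, the 3 of MEC1 and idelalisib in JVM2. MTERF4 was called higher in 5 comparisons and NSUN4, its partner in ribosome assembly, lower in 4. MRM3 was called in 4 (1 higher) and DHX30 in 4 (1 higher).

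For the 8 regulators of mitochondrial biogenesis, of which 7 were tested in JVM2, MEC1 gave 1 higher and 5 lower with fludarabine, 0 higher and 1 lower with ibrutinib and 1 higher and 3 lower with idelalisib. The calls of JVM2 were 2 higher and 2 lower with fludarabine, 1 higher and 0 lower with ibrutinib and 2 higher and 1 lower with idelalisib. The calls of EHEB were 3 higher and 3 lower with fludarabine, 2 higher and 0 lower with ibrutinib and 2 higher and 1 lower with idelalisib. Shares above those of all genes were found in 5 of 9 comparisons for higher and 4 for lower calls. PPARGC1B, a coactivator, was higher in all 6 comparisons of JVM2 and EHEB (0.18 to 0.62) and lower with fludarabine in MEC1 (−0.46). ESRRA, its nuclear receptor partner, was higher in 3 and lower in 2, and PPRC1 likewise. PPARGC1A was lower in 4 of the 6 comparisons in which it was tested. Over the same comparisons a list of abundant noncoding RNAs, of which 7 of 18 genes were found by symbol, gave 1 higher and 3 lower with fludarabine, 1 higher and 2 lower with ibrutinib and 4 higher and 2 lower with idelalisib in MEC1. JVM2 had 1 higher and 2 lower with fludarabine, 0 higher and 3 lower with ibrutinib and 1 higher and 2 lower with idelalisib. EHEB had 0 higher and 1 lower with fludarabine, 0 higher and 0 lower with ibrutinib and 0 higher and 0 lower with idelalisib. The share of this list called higher was above that of all genes in 1 of 9 comparisons and the share called lower in 7. RN7SL2 and RN7SK were called most often, in 5 comparisons each. Their part in the mitochondrial results was not tested.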

How the data were processed

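Total RNA of 3 leukaemia lines was rRNA-depleted and sequenced in 36 libraries. The authors trimmed reads with Trimmomatic, aligned them to hg38 with HISAT2 2.1 and quantified genes with StringTie 1.3.4, with edgeR 3.22.5 downstream. The values the authors deposited are estimated counts per gene from this step, written as whole numbers, so library totals are not numbers of reads. The sources used here do not give strand, read length or the treatment of reads with several matches. The 1 entry without a symbol (0.00384% of counts) was left out.

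Counts were tested with edgeR 4.0.16 (quasi-likelihood F-test, TMM, filterByExpr with a minimum count of 10 and a minimum total of 15), each line alone over its 12 libraries, all genes tested together and p-values adjusted by Benjamini-Hochberg, with a threshold of 0.05. DMSO libraries were compared between lines over 9 libraries, and the interaction of line and treatment over 18. Levels are CPM on TMM library sizes. Class shares were compared by exact permutation tests, within lines and stratified by line. Alternatives used DESeq2 1.42.0, limma 3.58.1 (voom), other scalings and filters, other sets of libraries and each library left out. Calculations ran in R 4.3.3, Python 3.11.15, pandas 2.3.3, numpy 2.4.6 and scipy 1.17.1, with figures by matplotlib 3.10.9. Of the tests, only edgeR fits for fludarabine in MEC1 and for the fludarabine interaction were tried on simulated data. Coordinates and sequences come from GRCh38 and its annotation.

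The rule for members uses symbols alone, but these genes were taken up, and the gene lists chosen, with earlier results of these data known. Values in every library are given for MT-RNR1, MT-RNR2, MT-ND1, MT-CO1, MT-CYB, MT-ND5, MT-ND6 and the 3 tRNA genes with the highest mean count. The largest called change of a comparison was also named, and from each nuclear list at most 4 genes called most often, plus POLRMT, TFAM, TEFM, POLG, LRPPRC, SLIRP and PPRC1.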

Additional observations from a re-analysis of the deposited data

Results flagged for a closer look

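The response to a drug differed among the 3 lines, by edgeR's test of the line by treatment interaction, for the members named here. Of all genes, 39.1%, 33.6% and 45.7% passed this test with fludarabine, ibrutinib and idelalisib, each a larger share than that of the members. The lines also differed in exposure time. With fludarabine the adjusted p was 0.00604 for MT-RNR2, 0.0313 for MT-TC, 0.00204 for MT-TD, 0.0123 for MT-TT and 0.00416 for MT-TP. With ibrutinib it was 0.0302 for MT-ND4, 0.0178 for MT-TA, 0.02 for MT-TN, 0.00634 for MT-TC and 0.0319 for MT-TY. For idelalisib the mRNAs gave 0.00525 for MT-CYB, 0.00096 for MT-CO1, 0.0496 for MT-ND3 and 7.32e-05 for MT-CO3. The tRNAs with idelalisib gave 0.0254 for MT-TW, 0.0213 for MT-TA, 0.0299 for MT-TN, 0.00479 for MT-TC, 0.00891 for MT-TY, 0.000389 for MT-TD, 0.00412 for MT-TT and 0.000358 for MT-TP.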

How the results depend on the processing

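No call against DMSO changed direction, whereas the lower level of MT-CO1 in MEC1 than in JVM2 without drug (−0.41) became 0.04 with copies added (adjusted p = 0.828). Of the 187 calls against DMSO, DESeq2 and scaling without mitochondrial genes lost 0, copies added 1, library size scaling 2, the joint fit 7, the fit of only 6 libraries 10, limma-voom 11 and no filter 17. With nuclear copies added to their gene, and with overlapping genes summed, both chosen after seeing the data, 0 calls turned lower. The causes of the following moves were not tested. With the fit of only 6 libraries, idelalisib against ibrutinib in MEC1 gave 13 calls. The stricter filter, which tests fewer genes, gave 19 for idelalisib in JVM2. Idelalisib against ibrutinib in JVM2 gave 2 in the joint fit and 2 without a filter. Library size scaling gave 1 member lower in EHEB than in MEC1, 0 lower in MEC1 than in JVM2 (0 also with copies added) and 3 interactions with ibrutinib. TMM denominators gave log2 ratios of the tRNA share of 0.63 (MEC1) and 0.48 (JVM2) with fludarabine, 0.41 and 0.74 in JVM2 with ibrutinib and idelalisib, and 0.0852 in EHEB with fludarabine.

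With single libraries left out, higher calls ranged from 14 to 27 with fludarabine and 15 to 27 with ibrutinib in MEC1, 5 to 13 with ibrutinib and 6 to 17 with idelalisib in EHEB, and, between idelalisib and ibrutinib, 4 to 7 in MEC1 and 0 to 4 in JVM2. Lower calls ranged from 1 to 5 between these drugs in EHEB, 0 to 2 for EHEB against MEC1 and 0 to 2 for MEC1 against JVM2. Interactions ranged from 4 to 8, 3 to 6 and 8 to 22. The log2 ratio of the rRNA share ranged from 0.74 to 2.27 with idelalisib in JVM2 and 0.56 to 1.76 with fludarabine in EHEB. No paired analysis was possible because the groups share no library numbers.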
